A study of Mus musculus with 24 samples.

Results

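The hypoxia pathway genes are 10 genes of the response to low oxygen, taken by symbol from a count table of mouse liver: Hif1a and Epas1, Egln1 and Egln3, Vegfa and Adm, Ankrd37, and Pdk1, Pfkfb3 and Slc2a1. They are 10 of the 24421 genes in the table, and all 10 were among the 13833 genes with enough counts to be tested. The table holds RNA-seq counts of polyadenylated RNA from the medial liver lobe of C57BL/6 mice. The mice received either MitoCDNB at 5 mg/kg or a vehicle of 0.1% ethanol, and the liver was taken 1 h or 4 h later. This gave 4 groups of 6 libraries, a vehicle and a MitoCDNB group at each of the 2 times. MitoCDNB is a chlorodinitrobenzene carried into mitochondria by a triphenylphosphonium group, made to remove glutathione and block thioredoxin reductase there. Sex and age are not in the labels used here.

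In normal oxygen, the prolyl hydroxylases encoded by the Egln genes mark the alpha subunits of the hypoxia-inducible factors (HIF) for destruction through the von Hippel-Lindau protein. When oxygen falls, or when the iron-dependent hydroxylases are otherwise inhibited, the alpha subunits persist, pair with the Arnt protein and raise transcription of genes for glucose uptake, glycolysis, blood vessel growth and mitochondrial turnover. This control acts mainly on the HIF proteins, so their messenger RNA levels need not follow it. In liver, oxygen falls from the portal to the central side of the lobule, and the pathway is known there for effects on metabolism and erythropoietin.

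Library totals ran from 25.1 to 37.2 M counts. Levels are given as CPM, which puts each library's counts on a common total after TMM scaling (the trimmed mean of M values), and differences as log2 fold changes from the edgeR quasi-likelihood F test with Benjamini-Hochberg adjustment over all genes tested. A gene passed at an adjusted p under 0.05. All 6 hepatocyte markers examined were present in every group, with a summed level of 41225 to 64344 CPM. On the second principal component of the log2 levels, with 9.60% of their variance, vehicle at 4 h replicate 1 (-29.6) and MitoCDNB at 4 h replicate 2 (-39.7) lay below the other 22 libraries (-15.0 to 24.6). At 1 h, the summed level of 8 brain markers was 21.8 to 27.5 CPM in vehicle replicates 4 to 6 and 13.1 to 20.3 CPM in vehicle replicates 1 to 3. In MitoCDNB at 1 h it was 17.8 to 23.1 CPM in replicates 4 to 6 and 12.8 to 18.8 CPM in replicates 1 to 3. Values without the 2 libraries, or within a set of 1 h replicates, are given beside the results whose calls they change. The labels do not say whether mice were handled in batches. In whole liver, fewer cells of a type and less RNA per cell cannot be told apart.

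Of the 10 members, 1 passed at 1 h, 0 at 4 h, and 2 fell between 1 h and 4 h in the mice given MitoCDNB. In that comparison over time 28.5% of all genes passed, 13.4% as lower. At 1 h, Slc2a1, which encodes the glucose transporter GLUT1, rose 1.46-fold over vehicle (edgeR adjusted p = 0.0433). By comparison, 6.57% of all genes passed at 1 h, 2.70% as higher and 3.87% as lower. At 4 h, 0 of 10 members passed by edgeR, against 0.824% of all genes, and DESeq2 and limma-voom with quality weights also called 0. At an unadjusted p under 0.05 there were 3 members at 1 h (Slc2a1, Vegfa and Egln1) and 3 at 4 h (Epas1, Pfkfb3 and Slc2a1), where 17.7% and 14.3% of all genes reached it. The median log2 difference of the 10 members was 0.13 at 1 h and 0.02 at 4 h, and that of all genes tested lay within 0.01 of 0 at both times.

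**Figure D1:**
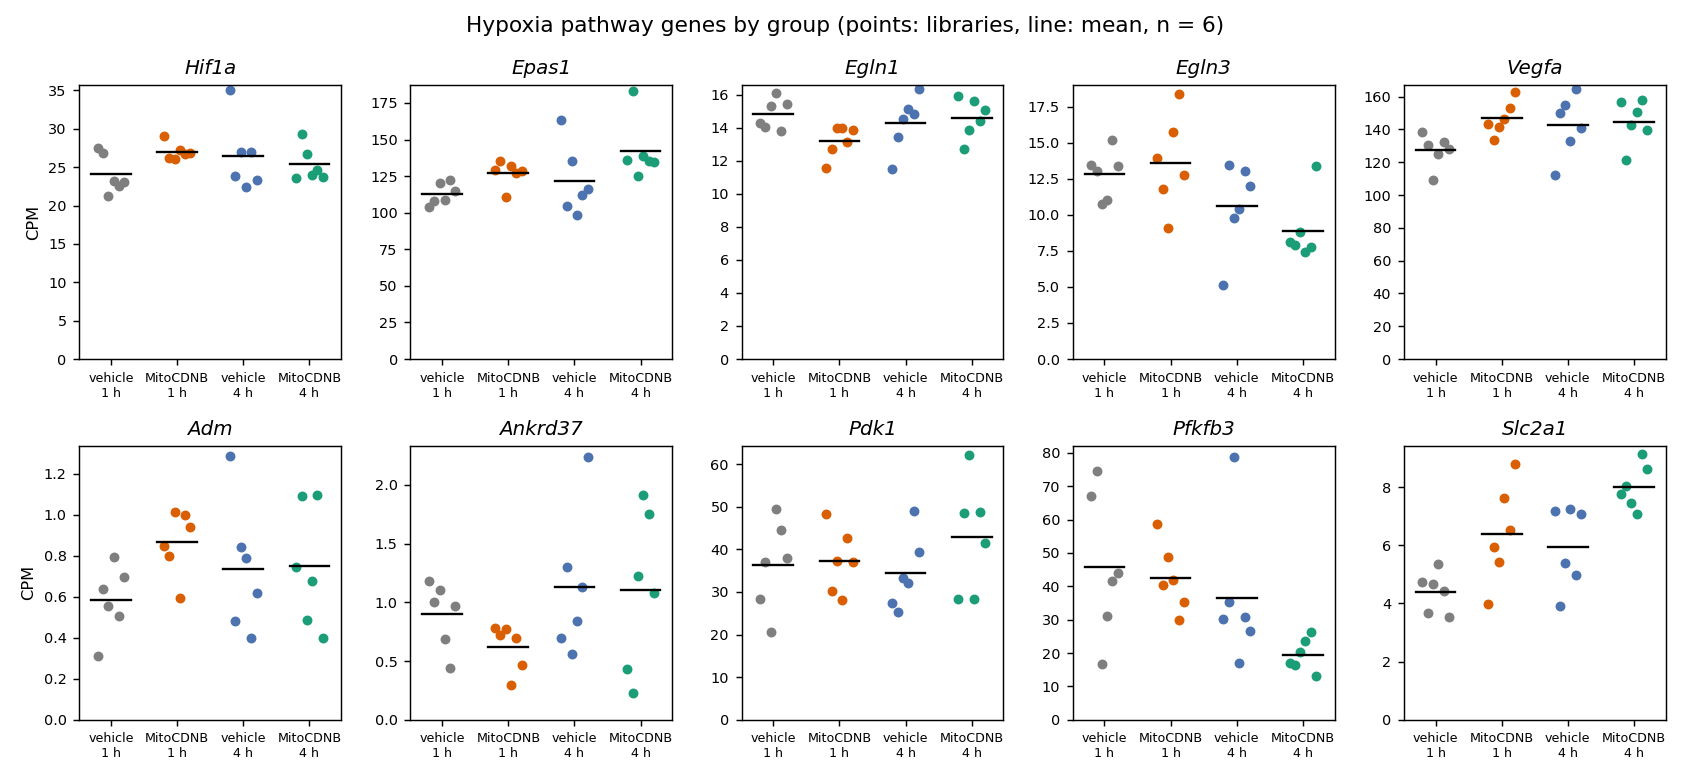
Level of each hypoxia pathway gene in CPM (y axis, linear from 0) by group (x axis). Each point is 1 library, in order of replicate number from left to right, and the line is the mean of 6. All 10 genes have overlapping MitoCDNB and vehicle points at 1 h and at 4 h, and Slc2a1 is lowest on average in vehicle at 1 h and highest in MitoCDNB at 4 h.

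Per kilobase of annotated exon, Vegfa (32.8 ± 3.47 CPM per kb) and Epas1 (22.5 ± 3.41) were the most abundant members (mean ± SD over 24 libraries). Pdk1, Pfkfb3, Hif1a, Egln3 and Egln1 followed at 4.85, 4.77, 4.36, 4.32 and 3.96 CPM per kb, with SDs of 0.362 to 2.44, so their order was not resolved beyond their spread. Slc2a1 was lower at 1.77 ± 0.495, and Ankrd37 (0.610 ± 0.324) and Adm (0.453 ± 0.155) were lowest. Ankrd37 had 7 to 65 counts and Adm 10 to 37 counts per library, the fewest of the members. Levels varied most between libraries for Ankrd37 and Pfkfb3 (coefficient of variation over all 24 libraries of 53.2% and 51.2%) and least for Egln1 (9.13%).

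A promoter window, taken here as the 250 bases before a RefSeq start (GRCm38.p6), was found for 9 of the 10 members, all but Epas1. RefSeq starts need not match the gene positions given below, which are from GENCODE, so windows can overlap the gene or lie inside it. Those of Slc2a1, Egln3 and Pfkfb3 are printed 5′ to 3′ on the gene's strand because these are the 3 members that passed in a comparison of 2 groups. Capitals mark the core of the HIF response element, searched as ACGTG or GCGTG on either strand, so that CACGT and CACGC count too and the palindrome CACGTG counts on both strands.
Slc2a1, chr4:119108495-119108744, plus strand: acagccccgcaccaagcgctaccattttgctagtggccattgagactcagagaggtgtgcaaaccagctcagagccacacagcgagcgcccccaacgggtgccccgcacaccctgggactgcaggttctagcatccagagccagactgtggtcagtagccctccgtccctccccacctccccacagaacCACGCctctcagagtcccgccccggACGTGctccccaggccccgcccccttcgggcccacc
Egln3, chr12:54203875-54204124, minus strand: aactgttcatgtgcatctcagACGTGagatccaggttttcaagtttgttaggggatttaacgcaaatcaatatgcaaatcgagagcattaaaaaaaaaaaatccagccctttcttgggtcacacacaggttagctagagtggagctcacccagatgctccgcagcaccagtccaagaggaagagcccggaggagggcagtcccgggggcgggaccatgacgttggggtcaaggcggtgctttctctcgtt
Pfkfb3, upstream start, chr2:11553930-11554179, minus strand: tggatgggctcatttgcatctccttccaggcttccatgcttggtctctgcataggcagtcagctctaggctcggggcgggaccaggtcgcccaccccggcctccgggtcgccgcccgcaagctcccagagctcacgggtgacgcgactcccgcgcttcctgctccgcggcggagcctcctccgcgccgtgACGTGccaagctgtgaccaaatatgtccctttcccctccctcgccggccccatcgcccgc
Pfkfb3, downstream start, chr2:11502091-11502340, minus strand: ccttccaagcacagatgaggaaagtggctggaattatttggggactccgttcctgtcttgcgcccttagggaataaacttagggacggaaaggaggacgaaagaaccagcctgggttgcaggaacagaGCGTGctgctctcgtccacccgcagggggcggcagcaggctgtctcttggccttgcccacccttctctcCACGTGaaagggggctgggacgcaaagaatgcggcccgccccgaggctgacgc

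The Slc2a1 window and the upstream Pfkfb3 window overlap in part the gene positions given below, and the downstream Pfkfb3 window lies inside the gene. The Slc2a1 window holds the core at 61 and 36 bases before its RefSeq start and the Egln3 window at 229 bases before its own. The upstream Pfkfb3 window holds the core at 60 bases before its RefSeq start, and the downstream one at 122 bases and, as the palindrome, at 53. Some window of each of the 9 members holds it, as do 41.5% of the 27025 gene symbols in the same table. Of the member windows 10 of 12 do, against 38.6% of 32851 windows. By the gene positions given below, the Hif1a and Ankrd37 windows and the only Vegfa window with the core lie inside the gene. The Vegfa window before the gene start holds 0. These counts are thus not of the sequence before each gene's start. A match to 5 letters is a description of the sequence and not a binding site.

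Hif1a encodes HIF-1 alpha, the oxygen-regulated subunit of HIF-1, and lies on chromosome 12 from 73901375 to 73947530 (mm10, plus strand). Its level ran from 21.2 to 27.5 CPM in vehicle at 1 h (median 23.2) and from 26.1 to 29.1 CPM in MitoCDNB at 1 h (median 26.8). At 4 h it ran from 22.5 to 35.0 CPM in vehicle (median 25.4) and from 23.6 to 29.3 CPM in MitoCDNB (median 24.3). All 6 MitoCDNB libraries of 1 h lay above the vehicle mean, but 5 of them lay within the vehicle range. The log2 difference was 0.17 (SE 0.0886, 95% interval -0.02 to 0.35, edgeR adjusted p = 0.345) at 1 h and -0.06 (interval -0.24 to 0.12, adjusted p = 0.824) at 4 h. Annotated exons of an antisense gene, Gm15283, share 5.60% of the Hif1a exon bases, and those of Gm49321 on the same strand share 2.51%, so its counts may hold reads of both.

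Epas1 encodes HIF-2 alpha, an alpha subunit known from endothelial cells, among others, and from erythropoietin control. It lies on chromosome 17 from 86753700 to 86833410 (plus strand). It ran from 103.6 to 122 CPM in vehicle (median 112) and from 111 to 135 CPM in MitoCDNB (median 129) at 1 h. In the groups of 4 h it ran from 98.6 to 163 CPM in vehicle (median 114) and from 125 to 183 CPM in MitoCDNB (median 136). MitoCDNB was above the highest vehicle library in 5 of 6 libraries at 1 h and in 1 of 6 at 4 h. The log2 differences were 0.17 (SE 0.101, interval -0.04 to 0.38, edgeR adjusted p = 0.418) at 1 h and 0.22 (SE 0.101, interval 0.02 to 0.43, adjusted p = 0.301) at 4 h. The highest level in each group of 4 h was in the library that stood apart. Without vehicle replicate 1 the difference at 4 h was 0.33 with adjusted p = 0.0458, and without both libraries it was 0.24 with adjusted p = 0.107.

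Egln1 encodes PHD2, the main prolyl hydroxylase of HIF alpha, and lies on chromosome 8 from 124908587 to 124949324 (minus strand). In the groups of 1 h it ran from 13.8 to 16.1 CPM in vehicle (median 14.8) and from 11.6 to 14.01 CPM in MitoCDNB (median 13.5). At 4 h it ran from 11.49 to 16.3 CPM in vehicle (median 14.7) and from 12.7 to 15.9 CPM in MitoCDNB (median 14.7). All 6 MitoCDNB libraries of 1 h lay below the vehicle mean, and 3 lay below the lowest vehicle library. The log2 difference was -0.17 (SE 0.0759, interval -0.32 to -0.01) and did not pass (edgeR adjusted p = 0.244), and at 4 h it was 0.03 (interval -0.13 to 0.18, adjusted p = 0.918).

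Egln3 encodes PHD3, a hydroxylase that is itself a HIF target, and lies on chromosome 12 from 54178981 to 54203860 (minus strand). It ran from 10.7 to 15.2 CPM in vehicle (median 13.2) and from 9.10 to 18.3 CPM in MitoCDNB (median 13.4) at 1 h. In the groups of 4 h it ran from 5.15 to 13.4 CPM in vehicle (median 11.2) and from 7.43 to 13.4 CPM in MitoCDNB (median 8.01). The groups overlapped at both times. MitoCDNB differed from vehicle by 0.09 (interval -0.30 to 0.48, edgeR adjusted p = 0.887) at 1 h and by -0.25 (interval -0.65 to 0.14, adjusted p = 0.598) at 4 h, on the log2 scale.

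Vegfa encodes the main growth factor of blood vessels, a HIF target, and lies on chromosome 17 from 46016993 to 46032369 (minus strand). At 1 h it ran from 109 to 139 CPM in vehicle (median 129) and from 133 to 163 CPM in MitoCDNB (median 145). By 4 h it ran from 112 to 164 CPM in vehicle (median 145) and from 121 to 158 CPM in MitoCDNB (median 147). MitoCDNB was above every vehicle library in 5 of 6 libraries at 1 h and in 0 of 6 at 4 h. The log2 difference at 1 h was 0.21 (SE 0.0818, interval 0.04 to 0.37), which did not pass (edgeR adjusted p = 0.163), and at 4 h it was 0.02 (interval -0.15 to 0.19, adjusted p = 0.942).

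Adm encodes adrenomedullin, a vasodilator peptide and HIF target, and lies on chromosome 7 from 110627661 to 110629820 (plus strand). Its level was 0.311 to 0.792 CPM in vehicle (median 0.594) and 0.594 to 1.02 CPM in MitoCDNB (median 0.894) at 1 h. At 4 h it was 0.400 to 1.29 CPM in vehicle (median 0.703) and 0.401 to 1.10 CPM in MitoCDNB (median 0.713). At 1 h, 5 of 6 MitoCDNB libraries lay above all vehicle libraries. The log2 difference at 1 h, 0.57, had an SE of 0.282 (interval -0.01 to 1.15, edgeR adjusted p = 0.293). Counting alone gives each library a coefficient of variation of 20.1% to 23.6% at these depths. By 4 h it was 0.02 (interval -0.55 to 0.59, adjusted p = 0.983).

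Ankrd37, a small ankyrin repeat gene known as a HIF-1 target, lies on chromosome 8 from 45996902 to 46005707 (minus strand). It ran from 0.439 to 1.18 CPM in vehicle (median 0.983) and from 0.297 to 0.778 CPM in MitoCDNB (median 0.712) at 1 h. At 4 h it ran from 0.563 to 2.23 CPM in vehicle (median 0.988) and from 0.225 to 1.92 CPM in MitoCDNB (median 1.15). The MitoCDNB range at 4 h spanned 8.54-fold, the widest of any member in any group. The log2 difference was -0.53 (interval -1.37 to 0.31, edgeR adjusted p = 0.585) at 1 h and -0.01 (interval -0.80 to 0.78, adjusted p = 0.996) at 4 h. Exons of Lrp2bp and Ufsp2 on the other strand cover 22.7% and 3.70% of its exon bases. The library kit is not named as stranded, so reads of these genes cannot be told apart from its own.

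Of the metabolic targets, Pdk1 encodes a kinase that restrains pyruvate dehydrogenase, and lies on chromosome 2 from 71873224 to 71903858 (plus strand). It ran from 20.6 to 49.5 CPM in vehicle (median 37.5) and from 28.2 to 48.2 CPM in MitoCDNB (median 37.1) at 1 h. By 4 h it ran from 25.3 to 48.9 CPM in vehicle (median 32.6) and from 28.4 to 62.2 CPM in MitoCDNB (median 45.0). The ranges overlapped almost fully at 1 h, and at 4 h only 1 MitoCDNB library exceeded the vehicle range. The log2 differences of 0.03 (interval -0.41 to 0.48, edgeR adjusted p = 0.969) and 0.32 (interval -0.13 to 0.77, adjusted p = 0.547) did not pass.

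Pfkfb3 encodes an enzyme that makes fructose 2,6-bisphosphate, an activator of glycolysis, and lies on chromosome 2 from 11471433 to 11554077 (minus strand). It ran from 16.8 to 74.5 CPM in vehicle (median 42.8) and from 29.9 to 58.8 CPM in MitoCDNB (median 41.1) at 1 h. In the groups of 4 h it ran from 17.04 to 78.8 CPM in vehicle (median 30.4) and from 13.04 to 26.4 CPM in MitoCDNB (median 18.6). All 6 MitoCDNB libraries of 4 h lay below the vehicle mean and 3 below the lowest vehicle library. The log2 difference at 4 h was -0.90 (SE 0.337, interval -1.61 to -0.20), the largest of any member at either time, and it did not pass (edgeR adjusted p = 0.203). Vehicle replicate 3 held the 78.8 CPM, and without it the difference was -0.52 (adjusted p = 0.464). At 1 h the difference was -0.11 (interval -0.80 to 0.58, adjusted p = 0.920).

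Slc2a1 lies on chromosome 4 from 119108711 to 119137983 (plus strand). At 1 h it ran from 3.53 to 5.37 CPM in vehicle (median 4.55) and from 3.99 to 8.78 CPM in MitoCDNB (median 6.24), with means of 4.40 ± 0.695 and 6.39 ± 1.68 (SD, n = 6). At 4 h it ran from 3.90 to 7.25 CPM in vehicle (median 6.23) and from 7.08 to 9.15 CPM in MitoCDNB (median 7.90), with means of 5.96 ± 1.41 and 8.02 ± 0.761. At each time 5 of 6 MitoCDNB libraries exceeded every vehicle library, and MitoCDNB replicate 1 of 1 h, at 3.99 CPM, lay inside the vehicle range. The log2 difference was 0.54 (SE 0.163, interval 0.21 to 0.88, edgeR adjusted p = 0.0433) at 1 h. At 4 h it was 0.43 (SE 0.159, interval 0.10 to 0.75) and did not pass (adjusted p = 0.193). The gene had 105 to 299 counts per library. Exons of the antisense gene Gm12868 cover 2.995% of its exon bases, and reads of that gene may be included.

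The call for Slc2a1 at 1 h was close to the threshold. It was lost when any one of 9 of the 12 libraries of 1 h was left out, that is vehicle replicates 1, 2, 3, 5 and 6 and MitoCDNB replicates 2, 4, 5 and 6. Over the 12 omissions the log2 difference ran from 0.43 to 0.65 and the adjusted p from 0.009 to 0.141. With 1 h limited to replicates 1 to 3 the difference was 0.24 (adjusted p = 0.721), and with replicates 4 to 6 it was 0.79 (adjusted p = 0.0572). The replicates with the larger difference were those with more brain marker counts. The brain marker sum was 17.8 to 23.1 CPM in MitoCDNB and 21.8 to 27.5 CPM in vehicle in replicates 4 to 6. In replicates 1 to 3 it was 12.8 to 18.8 CPM and 13.1 to 20.3 CPM. By edgeR, 0 of the 7 brain markers tested passed at 1 h. Marker sums of other cells also differed between MitoCDNB and vehicle at 1 h. The summed level of 5 erythroid markers was 1113 to 1153 CPM in MitoCDNB and 469 to 757 CPM in vehicle in replicates 4 to 6, which did not overlap. In replicates 1 to 3 it was 619 to 986 CPM and 519 to 1201 CPM, which overlapped, and 0 of the 5 markers passed at 1 h by edgeR. By 4 h the sum was 574 to 809 CPM in MitoCDNB and 393 to 899 CPM in vehicle. At 1 h, T and NK cell sums also separated in replicates 4 to 6 only, at 1.93 to 3.53 CPM in MitoCDNB and 1.12 to 1.45 CPM in vehicle. Cholangiocyte sums separated in replicates 1 to 3 only, at 43.3 to 54.1 and 20.1 to 28.0 CPM. Periportal and neutrophil sums separated in both sets. By edgeR, Spp1 (cholangiocyte), Gzma (T and NK cell), Lyve1 (endothelial) and Etnppl (periportal) passed as higher at 1 h, and Axin2 (pericentral) as lower. The part of any of these transcripts in the Slc2a1 difference was not tested.

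**Figure D2:**
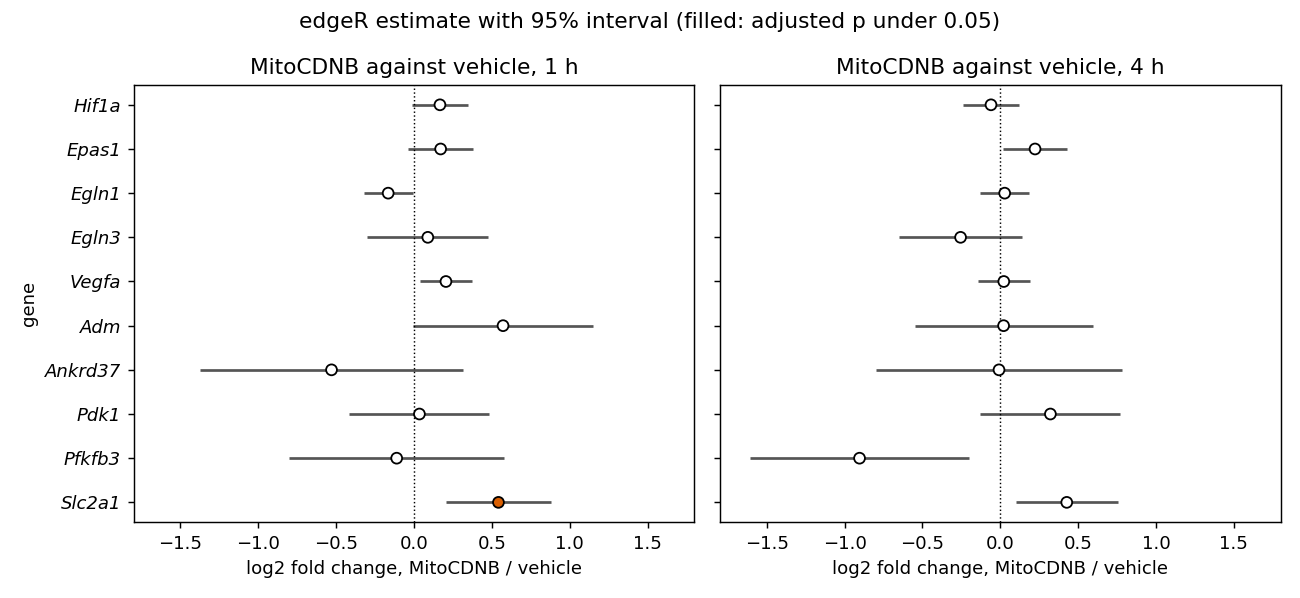
Log2 fold change of MitoCDNB over vehicle (x axis) for each member (y axis) at 1 h (left) and 4 h (right), from edgeR on 24 libraries. Points are estimates, bars are 95% intervals and a filled point passed at an adjusted p under 0.05. Only Slc2a1 at 1 h is filled, at 0.54, and the estimate farthest from 0 is that of Pfkfb3 at 4 h, at -0.90.

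Whether the MitoCDNB effect differed between the times was tested directly. None of the 10 members passed by edgeR (0 of 10, with 0 at an unadjusted p under 0.05), against 4.07% and 16.9% of all genes, and DESeq2 and limma-voom called 0 as well. The effect at 4 h minus that at 1 h was -0.12 for Slc2a1 (interval -0.58 to 0.35) and -0.79 for Pfkfb3 (interval -1.77 to 0.19) on the log2 scale. For Hif1a it was -0.23 (interval -0.48 to 0.03), and for Egln1 0.19 (interval -0.03 to 0.41). The median over the members was -0.15, and the median over all genes was -0.01.

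Time after injection was compared within each treatment, and these comparisons share their libraries with those above. The labels number all 4 h libraries before all 1 h libraries. A difference over time therefore cannot be told apart from library order, processing set, time of day or fasting. In vehicle, 0 of 10 members passed between 1 h and 4 h by edgeR, and by DESeq2 and limma-voom, against 5.44% of all genes. A single member, Slc2a1, reached an unadjusted p under 0.05, as did 19.6% of all genes. Its log2 difference was 0.44 (interval 0.11 to 0.78, adjusted p = 0.116), and without vehicle replicate 2 of 4 h, the lowest of that group, it was 0.54 with adjusted p = 0.0443. In vehicle its level at 4 h was thus 1.36 times that at 1 h, beside the 1.46-fold difference between MitoCDNB and vehicle at 1 h.

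In mice given MitoCDNB, 2 of 10 members passed between 1 h and 4 h, both lower, where 28.5% of all genes passed and 13.4% were lower. With 10 members, this count is read as a description beside those shares. Pfkfb3 fell by 1.13 on the log2 scale (SE 0.338, interval -1.83 to -0.42, edgeR adjusted p = 0.016), from a mean of 42.5 ± 10.2 to 19.4 ± 4.99 CPM (SD, n = 6). It was the 1 member whose groups did not overlap here, as held for 6.05% of all genes in this direction. With 1 h limited to replicates 4 to 6 its difference was -0.87 (adjusted p = 0.0946). Egln3 fell by 0.61 (SE 0.190, interval -1.004 to -0.22, adjusted p = 0.0181), from 13.6 ± 3.21 to 8.91 ± 2.25 CPM, and 5 of 6 libraries of 4 h lay below all those of 1 h. Without MitoCDNB replicate 5 of 1 h its adjusted p was 0.0539, and with 1 h limited to replicates 1 to 3 its difference was -0.38 (adjusted p = 0.294). Ankrd37 was the third member under an unadjusted p of 0.05, with a log2 difference of 0.84 (interval 0.01 to 1.67, adjusted p = 0.123), where 39.0% of all genes reached it. Slc2a1 differed by 0.33 over time in MitoCDNB (interval -0.0008 to 0.65, adjusted p = 0.129). It passed as higher with limma-voom (0.39, adjusted p = 0.0339), without MitoCDNB replicate 6 of 1 h (0.44, adjusted p = 0.0413) and with 1 h limited to replicates 1 to 3 (0.65, adjusted p = 0.0189), and it was 0.07 (adjusted p = 0.836) with replicates 4 to 6.

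Some markers of other cells were lower in the same comparison, where 13.4% of all genes were lower. All 3 neutrophil markers tested (Cxcr2, S100a8 and S100a9) were lower at 4 h than at 1 h of MitoCDNB by edgeR, and the summed level of the 4 in the table went from 6.55 to 10.6 CPM to 0.560 to 1.57 CPM. Of 10 endothelial markers, 5 were lower (Oit3, Ehd3, Egfl7, Kdr and Clec4g) and Lyve1 was higher, with a summed level of 259 to 310 CPM at 1 h and 232 to 269 CPM at 4 h. Of 7 brain markers tested, Camk2a and Nrgn were lower, as were the 2 tested of T and NK cells. Vsig4 was lower of 6 Kupffer cell markers, and of 5 cholangiocyte markers Krt19 was lower and Sox9 higher. Among 8 pericentral markers Lgr5 was lower and Axin2 higher, and among 8 periportal ones Hal and Pck1 were lower and Ass1 higher. None of 6 hepatocyte, 6 stellate cell and 5 erythroid markers passed. The part of these cells in the differences of Pfkfb3 and Egln3 was not tested.

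**Figure D3:**
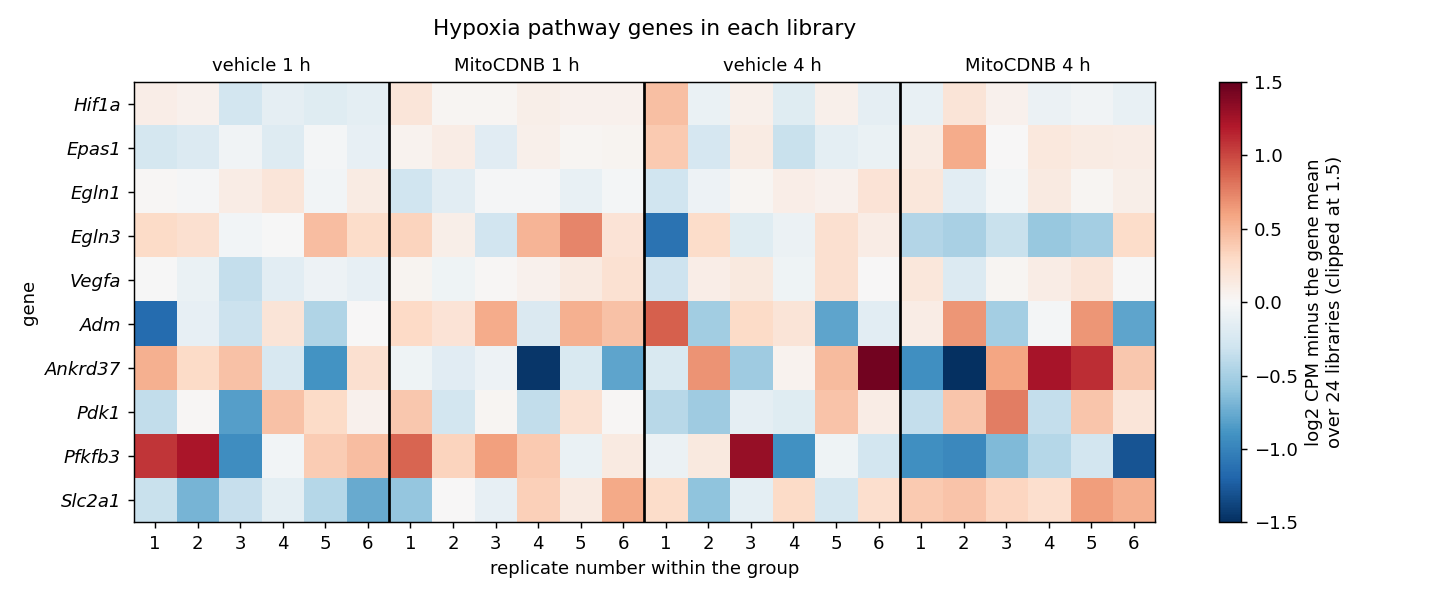
Log2 CPM of each member (rows) in each of the 24 libraries (columns, by group and replicate number), minus the gene's mean over all libraries, with colours clipped at 1.5 in either direction. Pfkfb3 and Egln3 are below their means in most MitoCDNB libraries of 4 h, and Hif1a and Epas1 are highest at 4 h in vehicle replicate 1 and MitoCDNB replicate 2.

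The 2 libraries of 4 h that stood apart shared a pattern over 4 members, 1 library being vehicle and the other MitoCDNB. Hif1a was 35.0 and 29.3 CPM in them and 22.5 to 27.0 CPM in the other 10 libraries of 4 h. Epas1 was 163 and 183 CPM against 98.6 to 139 CPM. Both genes of HIF alpha subunits thus lay above the range of the others in both libraries. Egln1, at 11.49 and 12.7 CPM, lay below the range of 13.4 to 16.3 CPM, and Vegfa, at 112 and 121 CPM, below 133 to 164 CPM. Pdk1, Pfkfb3 and Slc2a1 lay within the range of the others in both. The summed level of 8 periportal hepatocyte markers was 6578 and 7239 CPM there and 3801 to 5885 CPM in the others. That of 8 pericentral markers was 4723 and 4920 CPM against 3282 to 4499 CPM, and that of the brain markers 18.04 and 19.3 CPM against 9.56 to 14.2 CPM. The part of lobule position or of other tissue in these levels was not tested. Without both libraries, 4 members passed between 1 h and 4 h of MitoCDNB, with Egln1 (log2 0.18, edgeR adjusted p = 0.0434) and Ankrd37 (log2 1.05, adjusted p = 0.026) joining as higher.

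By a rule that ranked 11271 genes whose mean level was 1 CPM or more, Tns2, Inafm1 and Sun1 had the levels most like those of Slc2a1, with Pearson correlations of log2 CPM of 0.792, 0.792 and 0.781 over 24 libraries. The libraries share their group and depth, so these are descriptions only. None of the 3 passed at 1 h (edgeR adjusted p of 0.244, 0.0547 and 0.313) or at 4 h (0.354, 0.0674 and 0.729).

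The rest of the pathway was read from 10 lists with 99 other genes, of which 87 were tested. At 1 h, 9 were higher and 1 lower with MitoCDNB (11.5%, against 6.57% of all genes), and the median log2 difference of the 87 was 0.06. At 4 h 1 was higher and 1 lower (2.30%, against 0.824%), with a median of 0.05. Since the lists were chosen with earlier results known, these shares describe the genes and are no test of the pathway.

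Of the 4 tested genes for HIF subunits and coactivators, 2 rose at 1 h. Arnt, the partner of both alpha subunits, ran from 21.4 to 26.3 CPM in vehicle (median 24.2) and from 28.6 to 34.0 CPM in MitoCDNB (median 32.7). The groups did not overlap, which held for 2.19% of all genes in this direction. MitoCDNB differed from vehicle by 0.41 on the log2 scale (SE 0.0705, edgeR adjusted p = 4.81e-04), and it was 0.32 (adjusted p = 0.138) with 1 h limited to replicates 4 to 6. By 4 h the levels in vehicle and MitoCDNB were 29.5 ± 2.86 and 29.3 ± 2.48 CPM (log2 difference -0.01, interval -0.15 to 0.14). Vehicle at 1 h was the lowest of the 4 groups, and Arnt also rose from 1 h to 4 h in vehicle (log2 0.29, adjusted p = 0.0141). Cited2, which competes with HIF for its coactivators, rose from 20.2 ± 4.11 to 30.9 ± 5.46 CPM at 1 h (log2 0.61, adjusted p = 0.0356), and this call was lost in 6 of 12 single omissions. With 1 h limited to replicates 1 to 3 or 4 to 6 it was 0.76 (adjusted p = 0.201) and 0.48 (adjusted p = 0.422).

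Among 9 genes of hydroxylation and degradation, Egln2 alone passed at 1 h. Egln2 encodes PHD1, and its level was 40.3 ± 1.29 CPM in vehicle and 47.5 ± 4.11 CPM in MitoCDNB (log2 0.24, edgeR adjusted p = 0.0425). The groups did not overlap, yet the call was lost in 9 of 12 single omissions. With 1 h limited to replicates 1 to 3 or 4 to 6 the log2 difference was 0.18 (adjusted p = 0.537) and 0.29 (adjusted p = 0.224). None of the 9 passed at 4 h. The 3 Egln genes therefore stood at log2 differences of -0.17 (Egln1), 0.24 (Egln2) and 0.09 (Egln3) at 1 h, of which only that of Egln2 passed.

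The glycolytic and lactate genes numbered 16, and 1 passed at 1 h and none at 4 h. Slc16a3, which encodes the lactate exporter MCT4, ran from 0.241 to 0.963 CPM in vehicle (median 0.530) and from 1.06 to 2.54 CPM in MitoCDNB (median 1.499) at 1 h. All MitoCDNB libraries lay above all vehicle libraries, at 26 to 72 against 7 to 31 counts, with a log2 difference of 1.53 (SE 0.275, edgeR adjusted p = 6.99e-04). Within replicates 1 to 3 of 1 h it was 1.34 (adjusted p = 0.0764) and within replicates 4 to 6 1.82 (adjusted p = 0.0115). By 4 h the means were 0.385 and 0.387 CPM. None of the 10 paralogues of Slc2a1, Pdk1 and Pfkfb3 passed in either comparison.

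Bnip3 alone passed among 6 mitochondrial targets. It encodes a mitophagy receptor of the outer mitochondrial membrane, and ran from 63.8 to 93.5 CPM in vehicle (median 71.5) and from 100.1 to 127 CPM in MitoCDNB (median 113) at 1 h. On the log2 scale the difference was 0.59 (SE 0.118, edgeR adjusted p = 0.00207), and it was also 0.59 within each set of 3 replicates (adjusted p of 0.0922 and 0.148). In vehicle it rose from 74.6 ± 10.2 CPM at 1 h to 107 ± 19.5 CPM at 4 h (adjusted p = 0.00945), so vehicle at 1 h was the lowest group here too. By 4 h it was 0.31 (interval 0.07 to 0.55, adjusted p = 0.203).

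Of 10 transcription and chromatin targets, 2 rose at 1 h. Rora, an orphan nuclear receptor gene also tied to the circadian clock, was 35.2 ± 3.94 CPM in vehicle and 54.6 ± 2.45 CPM in MitoCDNB (log2 0.63, edgeR adjusted p = 6.1e-04), and within replicates 4 to 6 of 1 h the log2 difference was 0.57 (adjusted p = 0.112). Bhlhe40, a transcriptional repressor gene with the same tie, was 58.3 ± 15.8 and 179 ± 15.3 CPM (log2 1.62, adjusted p = 1.35e-04). Neither passed at 4 h. Of the 13 other targets tested, Ddit4 and Irs2 rose at 1 h, to 49.2 ± 7.10 from 7.55 ± 1.72 CPM and to 45.0 ± 9.57 from 14.7 ± 12.6 CPM. Ddit4 encodes an inhibitor of mTORC1 and Irs2 an insulin receptor substrate, and both respond to signals other than oxygen. The Ddit4 difference was 2.70 on the log2 scale (edgeR adjusted p = 0.00337), and within replicates 1 to 3 and 4 to 6 of 1 h it was 2.69 and 2.71 without passing (adjusted p of 0.181 and 0.204). The Irs2 call was lost in 7 of 12 single omissions, and with 1 h limited to replicates 1 to 3 its log2 difference was 0.95 (adjusted p = 0.567).

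Of 7 collagen and matrix targets, 1 passed at 1 h, and it was lower. P4ha1 encodes a subunit of collagen prolyl 4-hydroxylase, and ran from 9.54 to 31.6 CPM in vehicle (median 13.2) and from 6.53 to 8.63 CPM in MitoCDNB (median 7.51) at 1 h. The groups did not overlap, as held for 2.54% of all genes in this direction, and the log2 difference was -1.18 (SE 0.246, edgeR adjusted p = 0.00343). Vehicle replicates 1 and 2 were high at 31.6 and 24.5 CPM, and with 1 h limited to replicates 4 to 6 the difference was -0.66 (adjusted p = 0.200). The level in vehicle was also 7.33 ± 1.84 CPM at 4 h against 17.1 ± 8.96 CPM at 1 h (adjusted p = 0.00558), so vehicle at 1 h stood above the other 3 groups.

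**Figure D4:**
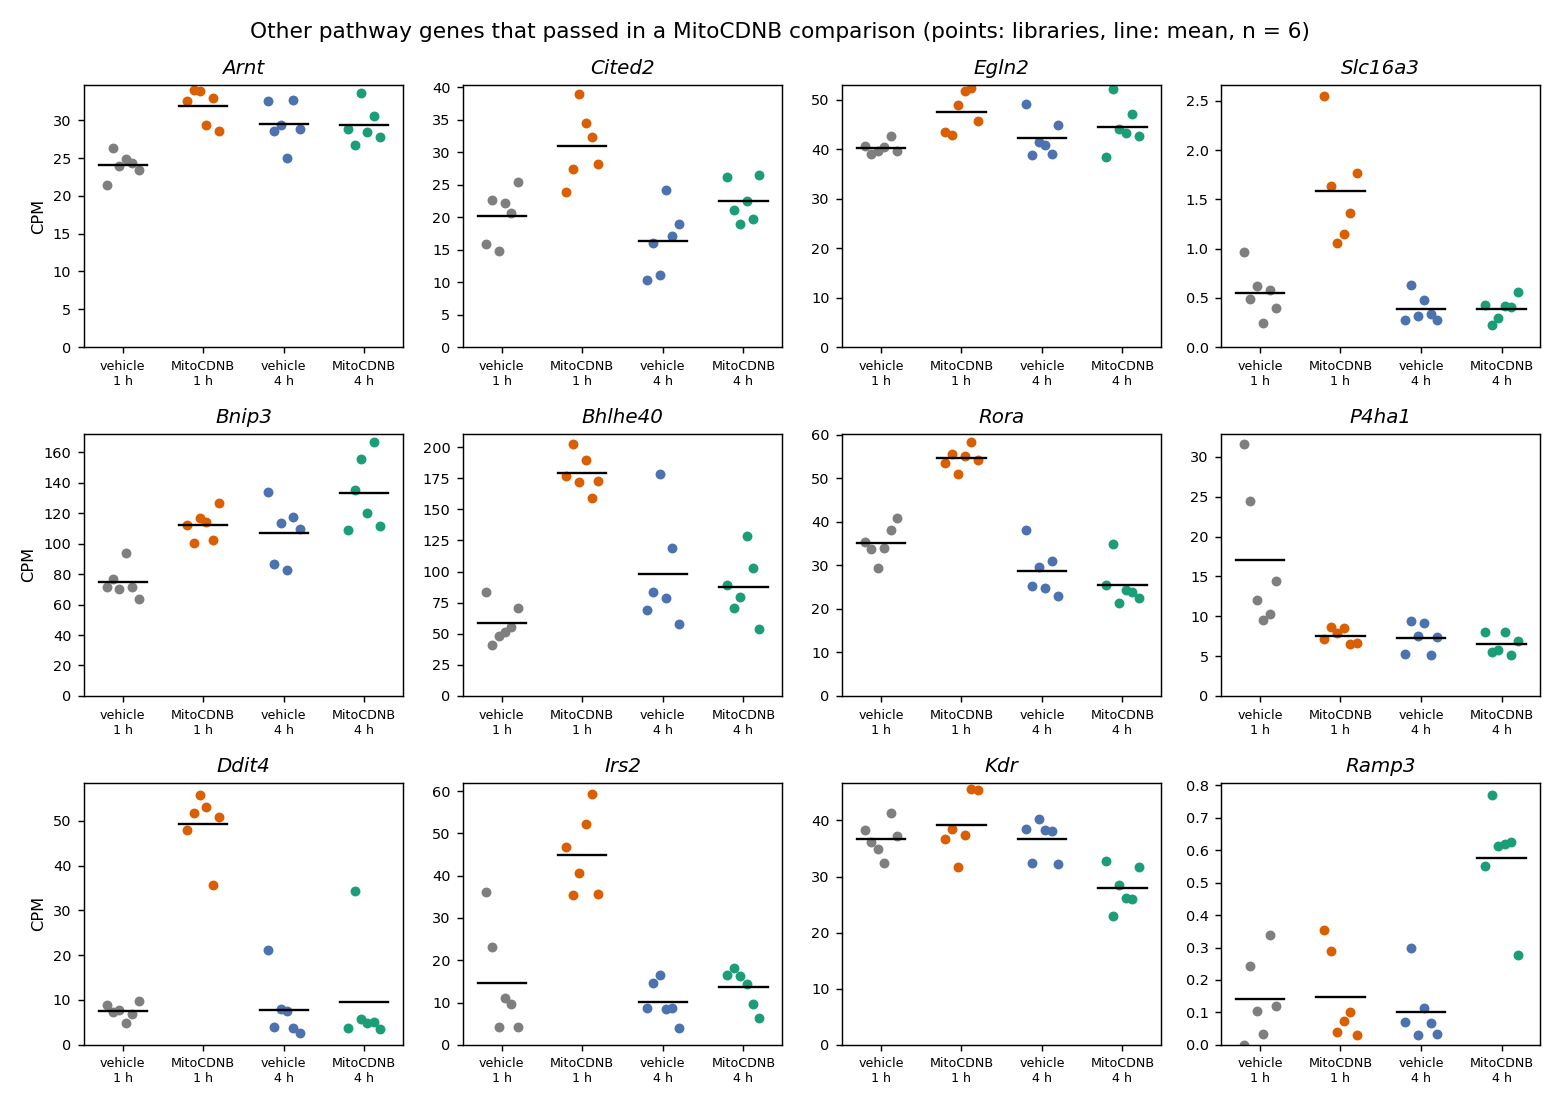
Level in CPM (y axis, linear from 0) of the 12 other pathway genes that passed between MitoCDNB and vehicle at 1 h or 4 h, by group (x axis). Each point is 1 library and the line is the mean of 6. Slc16a3, Bhlhe40, Rora, Ddit4 and Irs2 are highest on average in MitoCDNB at 1 h, P4ha1 is highest in vehicle at 1 h, and Kdr is lowest and Ramp3 highest in MitoCDNB at 4 h.

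At 4 h the genes that passed were a receptor of Vegfa and a receptor partner of Adm. Kdr encodes VEGF receptor 2, and ran from 32.3 to 40.3 CPM in vehicle (median 38.1) and from 22.9 to 32.7 CPM in MitoCDNB (median 27.4). Its log2 difference was -0.39 (SE 0.0923, edgeR adjusted p = 0.0435), and 5 of 6 MitoCDNB libraries lay below all vehicle libraries. Of the 8 VEGF ligands and receptors tested it was the only one to pass. Its ligand Vegfa differed by 0.02 at that time.

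Kdr is also 1 of 10 endothelial markers examined, of which 5 passed at 4 h, against 0.824% of all genes. Oit3, Ehd3, Kdr and Clec4g were lower with MitoCDNB and Lyve1 was higher. The summed level of the 10 was 247 to 283 CPM in vehicle and 232 to 269 CPM in MitoCDNB, so the groups overlapped. In the other marker lists only the periportal gene Etnppl passed at 4 h, as higher. The part of endothelial cell number in the Kdr difference was not tested. The Kdr call was lost in 7 of 12 single omissions (adjusted p of 0.0251 to 0.0951), and without the 2 libraries that stood apart its log2 difference was -0.32 (adjusted p = 0.0855).

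Ramp3 encodes a membrane protein that makes the calcitonin receptor-like receptor respond to adrenomedullin. It was listed at 1 to 8 counts in vehicle and 9 to 24 counts in MitoCDNB at 4 h, or 0.102 ± 0.100 and 0.576 ± 0.163 CPM. The log2 difference of 2.49 (SE 0.552, edgeR adjusted p = 0.028) thus rests on few counts, and the call was lost in 8 of 12 single omissions. No library of the other groups held more than 10 counts. The gene therefore met the count filter mainly through the group where it was high, and its call is a description. The difference depended on the libraries kept. Without the 2 libraries that stood apart the log2 difference was 2.31 (adjusted p = 0.0528). Ramp2, its relative, differed by 0.45 at 5.19 against 3.81 CPM (adjusted p = 0.0549), which did not pass. The level of Adm itself differed by 0.02.

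The MitoCDNB effect differed between 4 h and 1 h for 7 of the 87 genes (8.05%, against 4.07% of all genes), 6 of them with a lower value at 4 h. These were Bhlhe40 (log2 difference of effects -1.78, edgeR adjusted p = 0.00271), Slc16a3 (-1.52, adjusted p = 0.0402), Rora (-0.81, adjusted p = 0.00329), Nrp1 (-0.61, adjusted p = 0.0407), Kdr (-0.49, adjusted p = 0.0314) and Arnt (-0.41, adjusted p = 0.0155). Nrp1 encodes a co-receptor of Vegfa. Pfkfb1, the liver paralogue of Pfkfb3, had the higher value at 4 h (0.79, adjusted p = 0.0499). The count was 3 or 4 without any one of vehicle replicates 2, 4 and 6 of 1 h, MitoCDNB replicates 1, 2, 5 and 6 of 1 h, or MitoCDNB replicates 4 and 5 of 4 h. It was 0 with 1 h limited to replicates 1 to 3, 3 with replicates 4 to 6, and 4 without the 2 libraries that stood apart. By gene, the call was lost in 13 single omissions for Slc16a3, 7 for Kdr, and 0 for Bhlhe40, Rora and Arnt.

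Over time, 8 of the 87 genes passed in vehicle (6 higher and 2 lower, 9.20%, against 5.44% of all genes) and 26 in MitoCDNB (13 higher and 13 lower, 29.9%, against 28.5%). In MitoCDNB the glycolytic genes Aldoa and Eno1 were among those that rose, from 63.0 to 82.3 CPM (edgeR adjusted p = 8.39e-05) and from 298 to 374 CPM (adjusted p = 0.00671). In vehicle Aldoa rose from 60.8 to 75.8 CPM (adjusted p = 0.0053). These genes were chosen after their values were seen. Neutrophil markers moved with the treatment at 1 h, with a summed level of 4 genes of 1.79 to 5.71 CPM in vehicle and 6.55 to 10.6 CPM in MitoCDNB, although 0 of the 3 tested passed by edgeR. Their part in the differences of 1 h was not tested.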

How the data were processed

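The authors deposited raw counts as whole numbers, 1 row per gene symbol and 1 column per library. HISAT2, Trim Galore, CASAVA 1.8.4, DESeq2 and build mm10 are named in the submitters' processing notes. Which tool counted the reads, and with which annotation, is not given in the sources used here, and the NEBNext Ultra kit named in the labels' protocol does not mark strand by its name, so overlapping and antisense genes are uncertain. Replicates are samples of separate mice as far as the labels tell, and p-values weigh each group difference against the spread between these samples.

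From the counts, genes were kept by filterByExpr of edgeR 4.0.16 (minimum count 10, minimum total 15; R 4.3.3), which left 13833 genes. Library sizes were scaled by TMM (trimmed mean of M values), and a model of 4 groups was fitted to all 24 libraries with the robust quasi-likelihood F test. P-values were adjusted over all genes by the Benjamini-Hochberg method. Each SE is the size of the log2 fold change over the square root of F. The test was checked on simulated counts of the comparison at 1 h over 13694 genes, where it recovered 56 of 100 changes of 1.5-fold and 94 of 100 changes of 2-fold, up or down, with 7 false calls. The simulation gave every gene the same spread between libraries and held no outlying library. It therefore checks that the test runs as meant, and does not give its power or error rate on these data. DESeq2 1.42.0 and limma 3.58.1 (voom) were alternatives, with other scaling, filters, designs and left-out libraries. At totals of 25.1 to 37.2 M counts, counting alone gave a coefficient of variation of at most 8.60% for members other than Adm and Ankrd37. In some groups this was a large part of the observed spread. It was 6.34% beside 9.49% for Slc2a1 in MitoCDNB at 4 h, and 3.60% beside 3.98% for Hif1a in MitoCDNB at 1 h.

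The members, the pathway and marker lists and the comparisons were chosen with earlier results of these data known. The genes named are all 10 members, up to 4 pathway genes per list with the smallest p among those that passed in each MitoCDNB comparison, those whose effect differed between the times, and the 3 genes most correlated with a member that passed. Exon lengths, positions and overlaps are from GENCODE M21 (mm10), and promoters from RefSeq (GRCm38.p6).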

Additional observations from a re-analysis of the deposited data

Results flagged for a closer look

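In 9 of 88 groups of 6 libraries for the members and the 12 named pathway genes, 1 library lay apart from the other 5 by more than Dixon's 95% critical value. For the members alone this was 5 of 40 groups, and chance flags about 1 in 20. In vehicle at 4 h, Hif1a was 35.0 CPM in replicate 1, with the next library at 27.0 CPM, and Pfkfb3 was 78.8 CPM in replicate 3, with the next at 35.2 CPM. In MitoCDNB at 4 h, Epas1 was 183 CPM in replicate 2, with the next at 139 CPM, and Egln3 was 13.4 CPM in replicate 6, with the next at 8.79 CPM. In MitoCDNB at 1 h, Epas1 was lowest in replicate 3 at 111 CPM, with the next at 127 CPM.

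Of the other pathway genes, Rora was 35.0 CPM in MitoCDNB at 4 h replicate 2, where the next library was at 25.4 CPM. Ddit4 was 34.4 CPM in the same library, with the next at 5.69 CPM, and 21.2 CPM in vehicle at 4 h replicate 1, with the next at 7.88 CPM. Ramp3 was 0.297 CPM in vehicle at 4 h replicate 2, with the next at 0.112 CPM. Of these 9 values, 5 came from the 2 libraries of 4 h that stood apart on the second principal component.

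The effect of MitoCDNB at 4 h minus that at 1 h, tested as an interaction in edgeR, passed for 7 of the 87 other pathway genes and 0 of the 10 members. On the log2 scale it was -1.78 for Bhlhe40, -1.52 for Slc16a3, -0.81 for Rora, -0.61 for Nrp1, -0.49 for Kdr, -0.41 for Arnt and 0.79 for Pfkfb1.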

How the results depend on the processing

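The count of members that passed at 1 h, 1 in the main design, was 0 with upper quartile scaling, without a count filter, with only the compared groups, with the replicate number as a block, and with 1 h limited to replicates 1 to 3 or to 4 to 6, and 0 to 1 when 1 library was left out. For Slc2a1 these gave log2 differences of 0.52, 0.54, 0.54, 0.52, 0.24 and 0.79 with edgeR adjusted p of 0.0561, 0.0518, 0.0566, 0.109, 0.721 and 0.0572. At 4 h the count of 0 became 1 without vehicle replicate 1 (Epas1) and in vehicle over time 1 without replicate 2 of 4 h (Slc2a1). In MitoCDNB over time the 2 became 4 without the 2 libraries that stood apart and 1 with 1 h limited to replicates 4 to 6, and ran from 1 to 3 when 1 library was left out. With voom it was 3, Slc2a1 joining as higher. The difference of effects stayed at 0 members in every setting run. Same-numbered vehicle and MitoCDNB libraries had correlated deviations of -0.20 to 0.25, over 0.1 in 3 of 12 pairs, so the numbers were not shown to pair mice.

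For the other pathway genes at 1 h, the 10 became 4 and 3 with 1 h limited to replicates 1 to 3 and 4 to 6, and ran from 7 to 11 when 1 library was left out. At 4 h the 2 became 4 with DESeq2, with voom and with the replicate block, 0 with only the compared groups and 1 without the 2 libraries, and ran from 0 to 4 when 1 library was left out. For the difference of effects, the 7 became 4 without a count filter, 11 with voom, 4 without the 2 libraries, and 0 and 3 within the 2 sets of 1 h replicates, and ran from 3 to 9 when 1 library was left out. These counts were added after seeing the data. Over all genes at 4 h, 114 calls became 348 with DESeq2, 224 with voom, 18 with only the compared groups, 190 with library number as a covariate and 247 without the 2 libraries. They ran from 63 to 412 when 1 library was left out. Other counts over all genes that moved by more than 1.5 times were 913 with voom against 563 for the difference of effects, and, against 753 for vehicle over time, 415 with only the compared groups, 500 without vehicle replicate 5 of 1 h and 480 without replicate 6. With 1 h limited to replicates 1 to 3 or 4 to 6, calls were 244 and 256 against 909 at 1 h, 150 and 275 against 563, and 177 and 309 against 753, and with 1 to 3, 2395 against 3940 for MitoCDNB over time. The cause was not tested, except that fewer libraries entered these last fits.

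Values that changed sign had not passed. With upper quartile scaling these were the log2 values of Arnt at 4 h (0.0026) and of Vegfa in MitoCDNB over time (0.021). With voom they were Egln3 (-0.0093), Pdk1 (-0.044) and Ramp3 (-0.025) at 1 h, Ankrd37 (0.16), Arnt (0.025), Slc16a3 (-0.029) and Ddit4 (-0.044) at 4 h, Slc2a1 (0.048) for the difference of effects and Vegfa (0.025) over time. With library number as a covariate it was Ramp3 at 1 h (-0.038). Without the 2 libraries they were Ankrd37 (0.10), Arnt (0.047) and Ddit4 (-0.19) at 4 h, Egln1 in vehicle over time (0.0038) and Vegfa in MitoCDNB over time (0.027). With 1 h limited to replicates 1 to 3 they were Egln3 (-0.10) and Kdr (-0.031) at 1 h, Pdk1 (-0.10) and Slc2a1 (0.19) for the difference of effects, Pdk1 in vehicle over time (0.26) and Vegfa in MitoCDNB over time (0.055). With replicates 4 to 6 they were Pdk1 (-0.29) and Ramp3 (-1.25) at 1 h. When 1 library was left out, log2 values that crossed 0 at 1 h ran from -0.015 to 0.18 for Egln3, -0.085 to 0.14 for Pdk1, -0.28 to 0.082 for Pfkfb3 and -0.39 to 0.51 for Ramp3. At 4 h they ran from -0.11 to 0.037 for Hif1a, -0.027 to 0.070 for Egln1, -0.037 to 0.069 for Vegfa, -0.12 to 0.25 for Adm, -0.24 to 0.30 for Ankrd37, -0.052 to 0.023 for Arnt, -0.12 to 0.19 for Slc16a3, -0.30 to 0.098 for Bhlhe40 and -0.79 to 0.88 for Ddit4. For the difference of effects they ran from -0.033 to 0.15 for Epas1 and -0.25 to 0.0034 for Cited2. Over time they ran from -0.093 to 0.0038 for Egln1 and -0.21 to 0.029 for Pdk1 in vehicle, and from -0.046 to 0.027 for Vegfa in MitoCDNB.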
